A study of Homo sapiens with 27 samples.

Results

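The genes described here build, load and control MHC class I, and the set has 9 members: HLA-B, HLA-C, HLA-E, B2M, TAP1, TAPBP, PSMB8, PSMB9 and NLRC5. Members were chosen by gene symbol, as 9 of the 13523 genes in the deposited table, and all 9 were among the 13052 genes tested, those whose normalised value reached 1 in 3 or more libraries. RNA was taken from 501mel, an established human melanoma cell line that expresses MITF strongly, and sequenced from its polyadenylated 3′ ends. WT cells carried no edit and were left untreated, were starved of amino acids in HBSS, a glucose-containing saline, for 12 h, or were given Torin, an inhibitor of the kinase mTOR, at 250 nM for 12 h. TFE3 KO, TFEB KO and double KO (DKO, both genes) lines each had a 12 h control culture and a 12 h culture with 250 nM Torin. The WT control is labelled as non-treated and carries no time. Each knockout genotype is 1 clone made with Cas9 and a guide to TFE3 or TFEB, 2 transcription factors related to MITF, so clone and genotype cannot be told apart. The labels give 3 libraries for each of 9 groups. They do not say whether these were separate cultures, so p-values measure the spread between libraries, which may be technical.

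MHC class I shows peptides from inside the cell to CD8+ T cells. A heavy chain (such as HLA-B or HLA-C, or the less variable HLA-E, which is read mainly by NK cell receptors) pairs with the light chain B2M. Peptides are cut by the proteasome, whose constitutive catalytic subunits can be replaced by the immunoproteasome subunits PSMB8, PSMB9 and PSMB10, and are pumped into the endoplasmic reticulum by the transporter TAP1-TAP2, to which tapasin (TAPBP) ties the empty heavy chain. NLRC5 is a transactivator of these genes, acting through RFX, CREB/ATF and NF-Y factors at their promoters, and interferons raise most of them. Low class I expression is a known route by which melanoma escapes T cells.

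In hg38, 7 of the 9 genes lie on the short arm of chromosome 6 and 2 do not. HLA-E (chr6:30489509-30494194, plus strand), HLA-C (chr6:31268749-31272130, minus strand) and HLA-B (chr6:31353872-31367067, minus strand) are in the class I part of the MHC. PSMB8 (chr6:32840717-32844679, minus strand), TAP1 (chr6:32845209-32853816, minus strand) and PSMB9 (chr6:32844136-32859851, plus strand) sit together in its class II part, and TAPBP (chr6:33299694-33314284, minus strand) lies beyond them. The TFEB guide cuts on the same arm, 8.38 Mb from TAPBP and 11.2 Mb from HLA-E. B2M (chr15:44711358-44718851, plus strand) is on chromosome 15 and NLRC5 (chr16:56989485-57083531, plus strand) on chromosome 16. Annotated spans of PSMB9 overlap those of TAP1 and PSMB8 on the opposite strand. Whether the counter used strand is not given in the sources used here, so reads from overlapping genes may not be told apart. The last 300 bases of HLA-B and HLA-C are 89.8% identical in the reference, though they share no identical 50-base window. The line's own alleles and the mismatches allowed in mapping were not examined. Reads may therefore still be split between these paralogues, and both values are uncertain.

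The promoters of the members are shown for the letters of known class I promoter motifs that they hold or lack. Each is the 250 bases before a RefSeq start site in GRCh38.p14 (hg38), read 5′ to 3′ on the gene's own strand. The windows are HLA-B at chr6:31357180-31357429 (minus strand), HLA-C at chr6:31272093-31272342 (minus strand), B2M at chr15:44711267-44711516 (plus strand), TAPBP at chr6:33314079-33314328 (minus strand), TAP1 at chr6:32853705-32853954 (minus strand), PSMB9 at chr6:32853942-32854191 (plus strand) and PSMB8 at chr6:32844680-32844929 (minus strand). Capitals mark matches, on either strand, to CCAAT (the NF-Y motif), TGACG (part of the CREB/ATF site) and GAAANNGAA (the core of the interferon response element, where N is any base, and where overlapping matches run together). TAP1 and PSMB9 are transcribed away from each other, their windows overlap at the far ends, and there are 487 bases between the start sites.
HLA-B promoter: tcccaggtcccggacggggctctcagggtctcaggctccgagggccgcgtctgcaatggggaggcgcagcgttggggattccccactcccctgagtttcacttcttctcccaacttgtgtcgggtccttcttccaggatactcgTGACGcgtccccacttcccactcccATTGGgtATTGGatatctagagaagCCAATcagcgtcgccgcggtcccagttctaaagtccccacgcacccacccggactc
HLA-C promoter: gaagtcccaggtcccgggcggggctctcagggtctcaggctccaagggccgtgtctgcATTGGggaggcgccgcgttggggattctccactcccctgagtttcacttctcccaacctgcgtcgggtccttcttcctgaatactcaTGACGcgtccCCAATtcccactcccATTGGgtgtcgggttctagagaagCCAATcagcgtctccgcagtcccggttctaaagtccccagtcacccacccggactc
B2M promoter: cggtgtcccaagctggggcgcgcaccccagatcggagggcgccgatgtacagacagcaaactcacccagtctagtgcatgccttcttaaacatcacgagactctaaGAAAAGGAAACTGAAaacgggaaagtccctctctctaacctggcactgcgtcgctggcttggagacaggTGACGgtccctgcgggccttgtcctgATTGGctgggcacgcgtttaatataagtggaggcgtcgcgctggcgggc
TAPBP promoter: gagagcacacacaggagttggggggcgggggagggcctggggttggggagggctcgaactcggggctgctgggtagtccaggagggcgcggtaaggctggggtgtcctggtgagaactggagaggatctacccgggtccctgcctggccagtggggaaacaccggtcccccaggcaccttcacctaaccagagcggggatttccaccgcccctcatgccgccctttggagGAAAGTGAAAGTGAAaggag
TAP1 promoter: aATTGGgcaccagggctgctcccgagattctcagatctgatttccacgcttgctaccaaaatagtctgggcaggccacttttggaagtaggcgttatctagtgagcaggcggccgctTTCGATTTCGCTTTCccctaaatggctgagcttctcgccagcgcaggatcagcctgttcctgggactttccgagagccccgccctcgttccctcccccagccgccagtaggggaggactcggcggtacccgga
PSMB9 promoter: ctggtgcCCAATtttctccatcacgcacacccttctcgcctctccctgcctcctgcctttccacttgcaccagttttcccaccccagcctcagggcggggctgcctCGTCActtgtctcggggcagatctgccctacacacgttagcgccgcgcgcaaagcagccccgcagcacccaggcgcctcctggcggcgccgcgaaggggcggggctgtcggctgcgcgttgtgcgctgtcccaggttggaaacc
PSMB8 promoter: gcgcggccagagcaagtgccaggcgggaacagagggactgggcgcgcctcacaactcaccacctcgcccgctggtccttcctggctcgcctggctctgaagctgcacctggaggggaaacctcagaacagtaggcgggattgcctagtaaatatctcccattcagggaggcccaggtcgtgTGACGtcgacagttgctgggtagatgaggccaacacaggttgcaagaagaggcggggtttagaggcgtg

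HLA-B and HLA-C each hold TGACG and, nearer the start site, CCAAT on both strands, B2M holds both motifs and 2 overlapping GAAANNGAA matches, and TAPBP and TAP1 each hold 2 overlapping GAAANNGAA matches. PSMB9 and PSMB8 each hold a TGACG match and no GAAANNGAA match in these windows. The CCAAT marked at the far end of PSMB9 and of TAP1 is the same bases, where their windows overlap. CCAAT is present in 32.0% of the 35116 RefSeq promoter windows of this length, TGACG in 21.2% and GAAANNGAA in 6.88%. The E-box letters CACGTG and CATGTG, which MITF, TFEB and TFE3 bind, occur in 6.34% and 9.42% of all windows and in none of those shown. These matches describe the letters only. TAP1 and PSMB8 each have another annotated start, with windows at chr6:32852762-32853011 and chr6:32844048-32844297, which held no match and are not shown. HLA-E and NLRC5 had no window to show.

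Libraries held 4147050 to 6526392 reads in the table's genes. The upper limit set by a count of 0, which is 3 reads, was a value of 0.460 to 0.711, for counting error only. 1 column appears under 2 labels, WT HBSS replicate 3 and WT Torin replicate 1, with the same value for each of the 13523 genes, and was left out of both groups, so that WT HBSS and WT Torin have 2 libraries each and 25 libraries were fitted. TFE3 stood at 24.3, 23.8 and 24.0 in WT controls and at 7.59, 5.06 and 6.24 in TFE3 KO controls. TFEB, a low gene, stood at 3.45, 3.96 and 2.34 in WT, 0.911, 0.750 and 1.66 in TFEB KO and 0.177, 0.307 and 1.56 in TFE3 KO controls, so it was low in the TFE3 KO clone as well. All 8 melanocytic markers were in the table. In HBSS 7 of them rose and S100B fell, and their summed value was 14332 to 14482, against 6243 to 6433 in WT controls. With Torin 4, 6, 3 and 5 rose in WT, TFE3 KO, TFEB KO and then DKO cells, and TYR fell in each. In DKO controls, with a sum of 5193 to 5653, TYR and S100B were higher than WT and PMEL, DCT, MITF and TYRP1 lower, in TFEB KO MLANA was higher and S100B and TYRP1 lower, and in TFE3 KO S100B was higher. The shares of all tested genes that passed in these comparisons are given with the class I counts below. The part of these markers in the class I results was not tested. None of the 8 lymphocyte, 6 myeloid and 4 endothelial markers was in the table. Of 5 fibroblast markers, COL1A1 and LUM were listed, with a summed value of at most 6.62 in any library of any group, and of 4 keratinocyte markers only KRT10 was listed, at 76.1 to 117 in WT controls. KRT10 fell with Torin in WT (-0.48 ± 0.17 SE, adjusted p = 0.0226), TFEB KO (-0.42 ± 0.15 SE, adjusted p = 0.029) and DKO (-0.71 ± 0.15 SE, adjusted p = 0.000307) cells, and its part in the Torin results was not tested. COL1A1 was higher than WT in the TFEB KO (1.32 ± 0.28 SE, adjusted p = 0.000783) and DKO (1.58 ± 0.28 SE, adjusted p = 3.80e-05) controls, the clones in which PSMB8 and PSMB9 were high, and its part in those results was not tested. All differences are on the log2(value + 1) scale from a limma fit to all tested genes, which understates the change of low genes. In bulk RNA, fewer cells that express a gene and less RNA per cell cannot be told apart.

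Across treatments the class I genes moved upwards or did not pass, and across knockout clones they split. In HBSS, 4 of the 9 rose (HLA-C, HLA-E, TAPBP and PSMB8), against 23.6% of all tested genes that rose and 24.7% that fell. With Torin, 2 of 9 rose in WT (HLA-E and TAPBP), a share close to the 20.5% of all genes that rose, while 23.4% of all genes fell. In TFE3 KO cells Torin raised 6 of 9 (HLA-B, HLA-E, TAP1, TAPBP, PSMB8 and PSMB9), against 25.4% higher and 26% lower among all genes. In TFEB KO cells it raised 4 (HLA-E, B2M, TAPBP and NLRC5), against 17.4% higher and 21% lower, and in DKO cells 5 (HLA-B, HLA-E, TAP1, TAPBP and PSMB9), against 25.4% higher and 26.2% lower. With edgeR and DESeq2, HLA-B also passed in TFEB KO and HLA-C in DKO cells, and with edgeR B2M passed in DKO cells. HLA-E and TAPBP were the members that rose in all 5 treatment comparisons. With these settings no member fell in any of them by limma, edgeR or DESeq2. At an unadjusted p under 0.05 by limma, 1 did (PSMB9 in HBSS), and it passed as lower under some other settings given with its values.

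The median log2 difference over the 9 members was 0.34 in HBSS and, with Torin, 0.26 in WT, 0.65 in TFE3 KO, 0.30 in TFEB KO and 0.51 in DKO cells. Over all tested genes the medians of these 5 comparisons lay between -0.03 and 0.02. The knockouts' Torin responses were then set against that of WT in the same fit. By limma, edgeR and DESeq2, 0 members passed in TFE3 KO (all genes 1.06%), TFEB KO (1.16%) or DKO (0.506%). At an unadjusted p under 0.05 by limma, 1, 1 and 2 members did: TAP1, whose response was 0.65, 95% interval 0.05 to 1.24, adjusted p = 0.404 larger in TFE3 KO, HLA-E, which was smaller in TFEB KO (-0.39, 95% interval -0.72 to -0.07, adjusted p = 0.237), and HLA-B (0.59, 95% interval 0.02 to 1.16, adjusted p = 0.485) and PSMB9 (0.90, 95% interval 0.14 to 1.66, adjusted p = 0.38), which were larger in DKO. So the different lists of members that passed in each genotype were not shown to differ between genotypes.

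**Figure D1:**
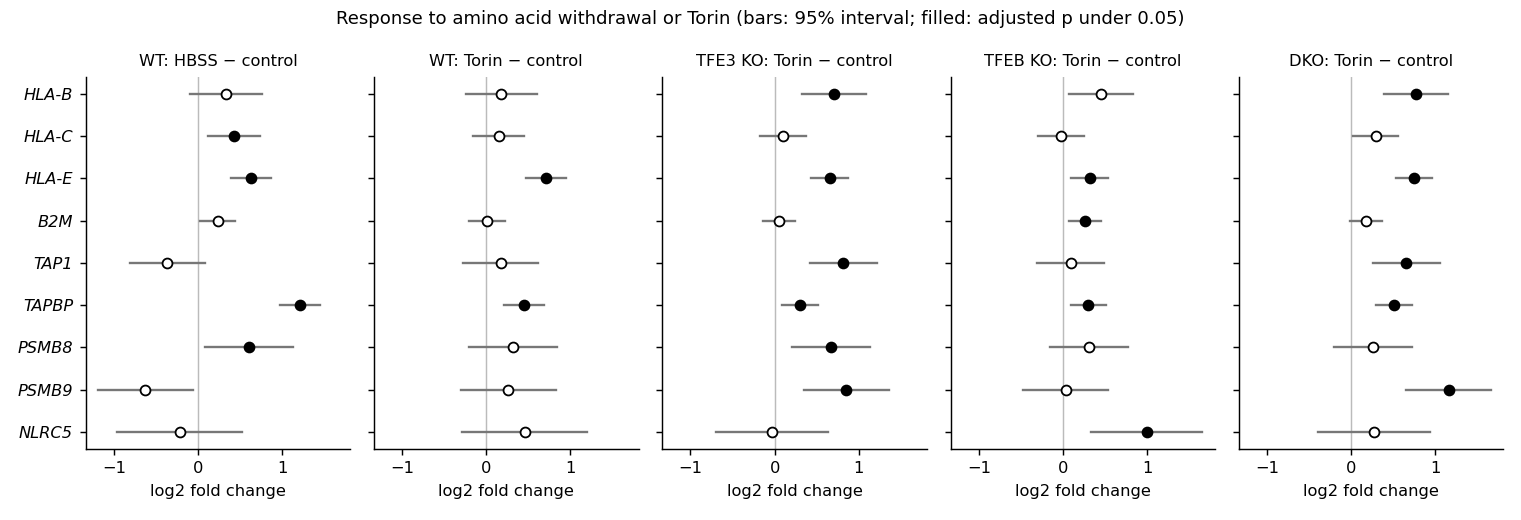
Log2 difference (x axis, log2(value + 1) scale) of each class I gene (rows) for HBSS in WT and Torin in 4 genotypes, with 95% intervals from limma and filled points where the adjusted p was under 0.05. HLA-E and TAPBP are filled in all 5 panels, and TAPBP in HBSS (1.21) and PSMB9 in DKO with Torin (1.16) are the points furthest to the right.

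Among control cultures, TFE3 KO cells had 4 members lower than WT (HLA-B, HLA-C, TAP1 and PSMB8; 5.84% of all genes fell) and 1 higher (TAPBP; 3.57% rose). TFEB KO cells had 4 higher (HLA-B, TAPBP, PSMB8 and PSMB9; 7.46% rose) and none lower (7.18% fell; also none by edgeR, DESeq2 or at an unadjusted p under 0.05). DKO cells had 2 higher (PSMB8 and PSMB9; 5.64% rose) and none lower by limma (7.49% fell), while HLA-B was lower at an unadjusted p under 0.05 and by edgeR. These 3 comparisons share the same WT controls. Set directly against TFE3 KO cells, TFEB KO cells had 5 members higher (HLA-B, HLA-C, TAP1, PSMB8 and PSMB9; 15.6% rose) and none lower by any of the 3 tools or unadjusted (14.3% fell). DKO cells had 2 higher than TFE3 KO cells by limma (PSMB8 and PSMB9; 2.65% rose), to which edgeR and DESeq2 added TAP1, and none lower by the 3 tools (2.22% fell), with HLA-E and TAPBP lower at an unadjusted p under 0.05. Against TFEB KO cells, they had B2M higher (11.8% rose) and HLA-B and HLA-C lower (13.7% fell).

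With Torin in both arms, TFE3 KO differed from WT by HLA-C alone, which was lower (6.23% of all genes fell, 3.41% rose; HLA-E and TAPBP were higher only at an unadjusted p under 0.05). TFEB KO had HLA-B, PSMB8 and PSMB9 higher (9.39% rose, 8.56% fell), and DKO had B2M, PSMB8 and PSMB9 higher (5.03% rose, 7.03% fell). PSMB8 and PSMB9 were thus higher than WT in the TFEB KO and DKO clones in both control and Torin cultures.

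**Figure D2:**
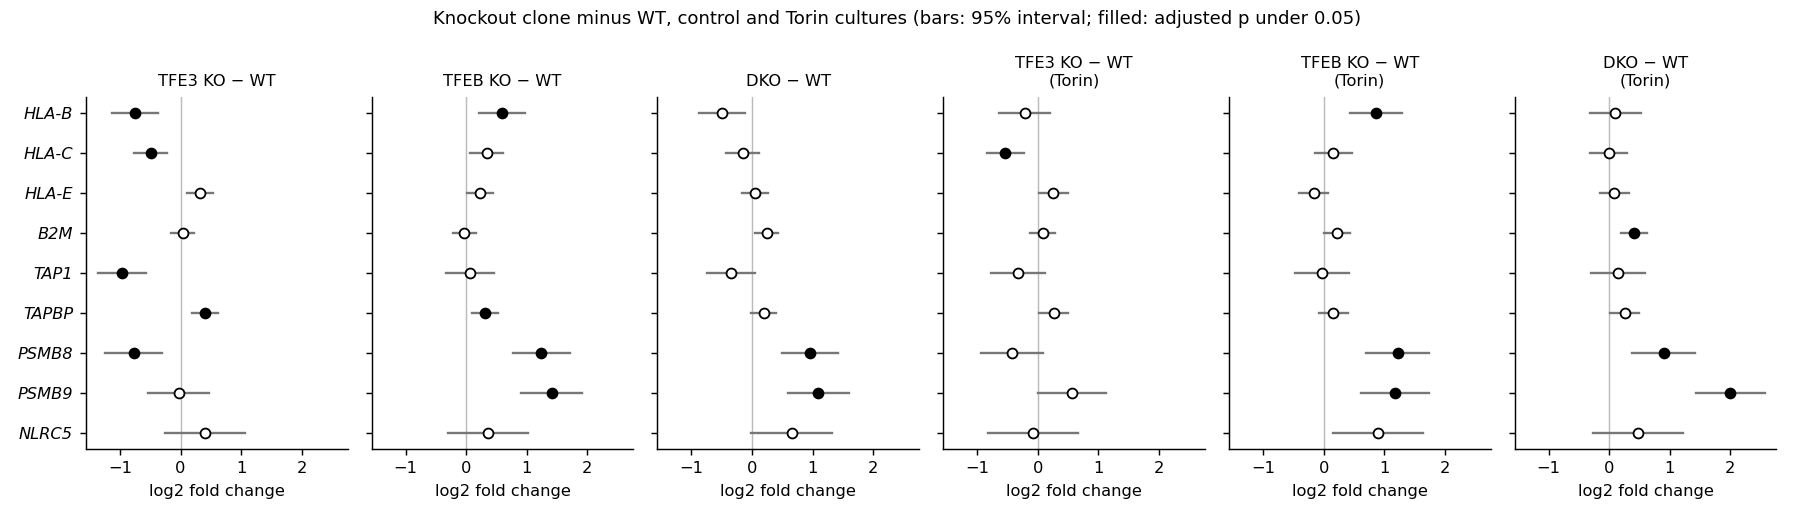
Log2 difference from WT (x axis, log2(value + 1) scale) of each class I gene (rows) in 3 knockout clones, for control cultures (left 3 panels) and Torin cultures (right 3 panels), with 95% intervals from limma and filled points where the adjusted p was under 0.05. PSMB8 and PSMB9 are filled to the right in all 4 TFEB KO and DKO panels, and TAP1 in TFE3 KO (-0.97) is the point furthest to the left.

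Of the heavy chains, HLA-B had its lowest group means in TFE3 KO and DKO controls and its highest in TFEB KO cells. Its values were 16.1, 8.91 and 10.3 in WT controls, 15.0 and 14.4 in HBSS and 13.4 and 12.8 with Torin. The treated libraries fell within the range of the controls, where replicate 1 stood above the other 2. In TFE3 KO the controls held 5.30, 7.05 and 7.02 and the Torin cultures 11.2, 12.2 and 9.99. Every TFE3 KO control was below every WT control, a difference of -0.75 ± 0.19 (SE, adjusted p = 0.006), and Torin raised HLA-B in this clone by 0.71 ± 0.19 (SE, adjusted p = 0.00148). TFEB KO controls held 12.3, 20.1 and 22.2 and Torin cultures 21.7, 28.1 and 24.4, the highest group mean. TFEB KO controls were higher than WT by 0.59 ± 0.19 (SE, adjusted p = 0.0288) although 1 of them overlapped the WT range, and higher than TFE3 KO by 1.33 ± 0.19 (SE, adjusted p = 2.58e-07) with no overlap. DKO controls held 7.32, 8.37 and 7.83 and DKO Torin cultures 15.2, 13.1 and 14.0. HLA-B was lower in DKO than in TFEB KO controls (-1.08 ± 0.19 SE, adjusted p = 1.84e-05), and Torin raised it by 0.77 ± 0.19 (SE, adjusted p = 0.000628). With Torin, TFEB KO stayed above WT by 0.86 ± 0.21 (SE, adjusted p = 0.0028). The Torin difference in TFEB KO did not pass by limma (0.46, 95% interval 0.08 to 0.84, adjusted p = 0.0506), but did with edgeR (adjusted p = 0.024) and DESeq2 (adjusted p = 0.0464). In the order of group means, from TFE3 KO control upwards, DKO control and TFE3 KO Torin each stood apart from the group below, and every later neighbour overlapped. The TFE3 KO call was lost without 1 library (adjusted p = 0.114 without WT control replicate 1 and 0.0581 without TFE3 KO control replicate 1), as was the TFEB KO call (adjusted p = 0.186 without WT control replicate 2, 0.11 without WT control replicate 3, 0.126 without TFEB KO control replicate 2 and 0.179 without TFEB KO control replicate 3).

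HLA-C varied less. WT controls held 24.8, 24.0 and 27.3, HBSS cultures 37.0 and 32.0 and Torin cultures 31.6 and 25.1, and the HBSS libraries were above all controls, by 0.43 ± 0.15 (SE, adjusted p = 0.0163). TFE3 KO cells held 18.4, 17.9 and 17.0 as controls and 20.8, 19.6 and 17.1 with Torin, the lowest pair of group means. The differences from WT were -0.49 ± 0.14 (SE, adjusted p = 0.0128) as controls and -0.54 ± 0.15 (SE, adjusted p = 0.0147) with Torin. TFEB KO cells held 31.2, 35.4 and 30.2 as controls and 26.2, 33.0 and 36.4 with Torin. Each TFEB KO control was above each WT control, but the difference did not pass (0.33, 95% interval 0.06 to 0.61, adjusted p = 0.0887), whereas the difference from TFE3 KO did (0.82 ± 0.14 SE, adjusted p = 4.76e-06). DKO cells held 25.1, 22.7 and 20.5 and, with Torin, 28.5, 29.8 and 25.8, and DKO controls were lower than TFEB KO controls, with a difference of -0.49 ± 0.14 (SE, adjusted p = 0.00548). Along the order of group means every neighbour overlapped. The HBSS call was lost without 1 library (adjusted p = 0.0511 without WT control replicate 2 and 0.181 without WT HBSS replicate 1), the TFE3 KO call (adjusted p = 0.0718 without WT control replicate 3 and 0.0582 without TFE3 KO control replicate 3), and the call under Torin (adjusted p = 0.278 without WT Torin replicate 2 and 0.071 without TFE3 KO Torin replicate 3).

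HLA-E rose with every treatment. WT controls held 39.1, 38.6 and 44.9, HBSS cultures 63.7 and 63.4 and Torin cultures 60.5 and 75.1. All treated libraries were above all controls, by 0.63 ± 0.12 (SE, adjusted p = 1.90e-05) in HBSS and 0.71 ± 0.12 (SE, adjusted p = 3.11e-06) with Torin. In TFE3 KO the controls held 48.6, 49.2 and 55.4 and the Torin cultures 68.7, 85.3 and 89.9, a rise of 0.65 ± 0.11 (SE, adjusted p = 1.20e-06). In TFEB KO 47.6, 45.2 and 51.7 went to 60.5, 59.1 and 60.9, a rise of 0.32 ± 0.11 (SE, adjusted p = 0.0156). In DKO 40.8, 46.9 and 39.0 went to 74.8, 72.1 and 67.1, a rise of 0.75 ± 0.11 (SE, adjusted p = 8.69e-08). In each genotype the Torin libraries did not overlap the controls. In the order of means the 4 control groups came first and overlapped their neighbours, TFEB KO Torin and WT HBSS each stood apart from the group below, and the other Torin groups overlapped. No genotype difference of HLA-E passed by limma. The nearest, TFE3 KO minus WT, was 0.32, 95% interval 0.10 to 0.53, adjusted p = 0.0514, and edgeR called it higher. The TFEB KO call was lost without 1 library (adjusted p = 0.0743 without TFEB KO control replicate 2).

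B2M, the light chain and a gene off chromosome 6, ranged from 263 to 429. WT controls held 347, 289 and 263, HBSS cultures 359 and 341 and Torin cultures 298 and 301, all overlapping. TFE3 KO cells held 297, 302 and 317 as controls and 356, 323 and 277 with Torin, again overlapping. TFEB KO cells held 268, 282 and 324 and, with Torin, 347, 346 and 354, a rise of 0.27 ± 0.09 (SE, adjusted p = 0.0219) with no overlap. DKO cells held 317, 330.2 and 417 and, with Torin, 387, 382 and 429. B2M was higher in DKO than in TFEB KO controls by 0.28 ± 0.09 (SE, adjusted p = 0.0244), with overlapping libraries, and higher in DKO than in WT with Torin by 0.41 ± 0.10 (SE, adjusted p = 0.00631). The differences of TFE3 KO and TFEB KO from WT controls were 0.04, 95% interval -0.15 to 0.22, adjusted p = 0.883, and -0.04, 95% interval -0.22 to 0.15, adjusted p = 0.856. Every neighbour in the order of B2M group means overlapped. The Torin call in TFEB KO was lost without 1 library (adjusted p = 0.118 without TFEB KO control replicate 1, 0.0756 without TFEB KO control replicate 2 and 0.067 without TFEB KO Torin replicate 3), as were the call of DKO against TFEB KO (adjusted p = 0.134 without TFEB KO control replicate 1, 0.0849 without TFEB KO control replicate 2 and 0.235 without DKO control replicate 3) and that of DKO against WT with Torin (adjusted p = 0.0682 without WT Torin replicate 2 and 0.0566 without WT Torin replicate 3). Without DKO control replicate 3, the difference from TFEB KO was 0.156.

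**Figure D3:**
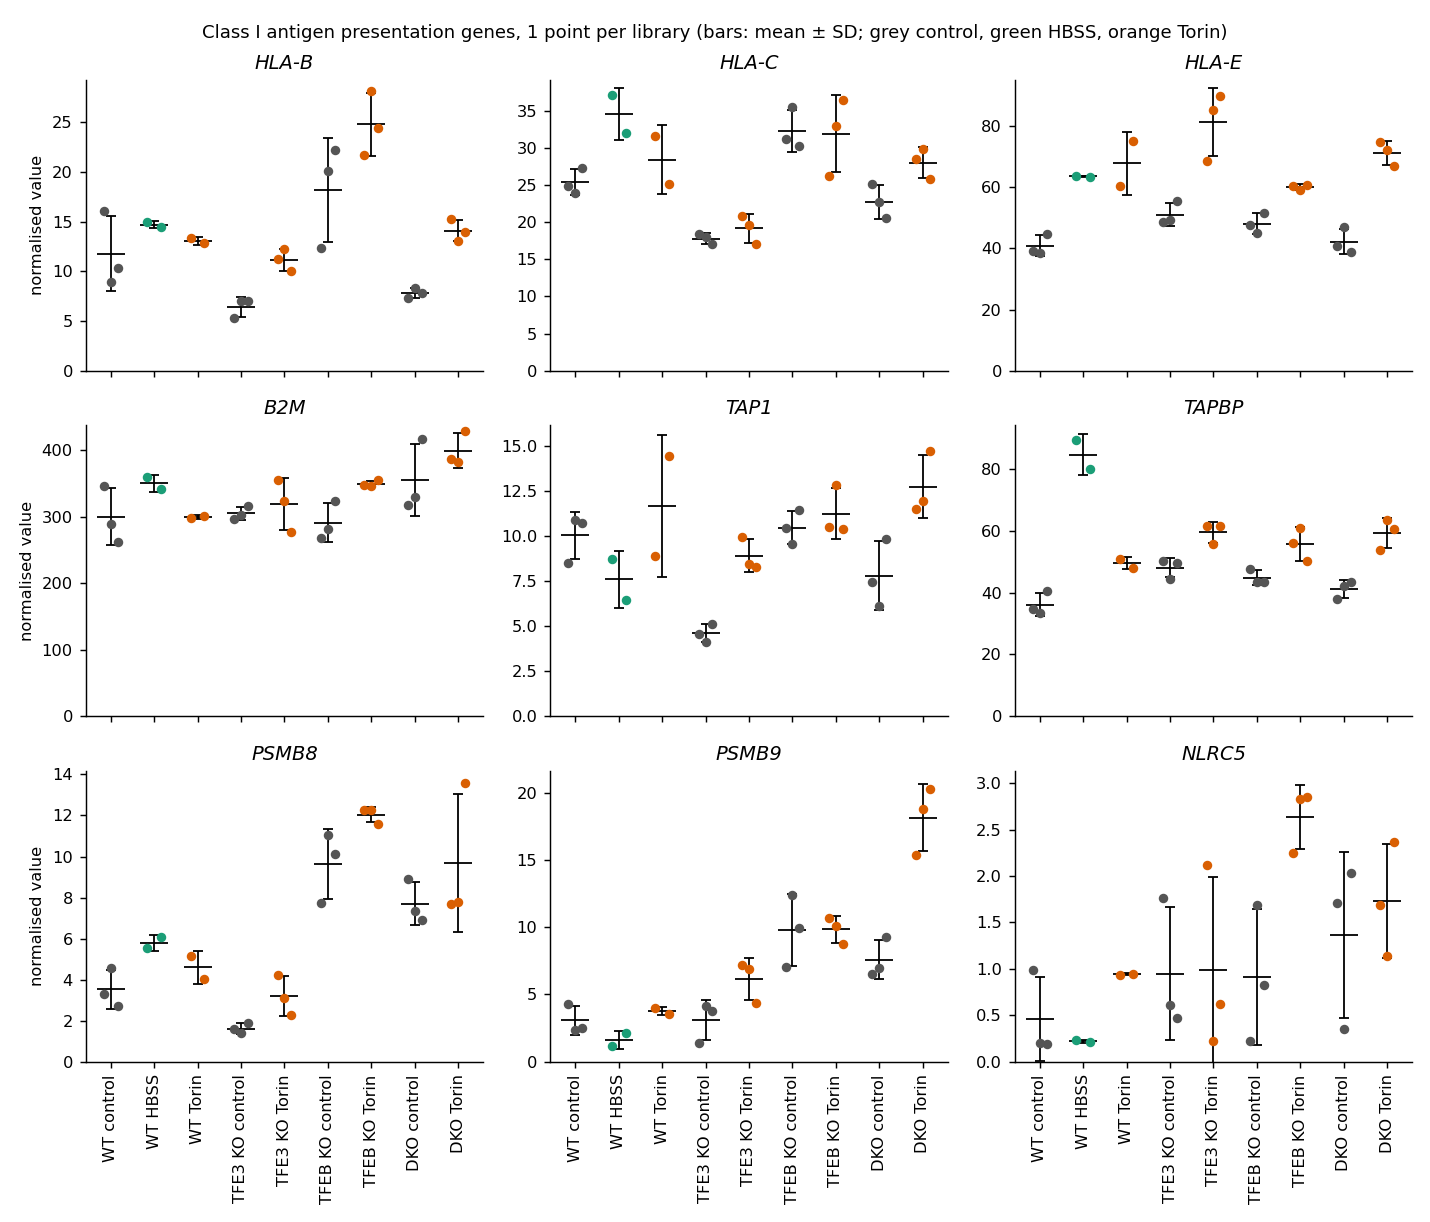
Normalised value (y axis, linear, from 0) of the 9 class I genes in each of 25 libraries, by group (x axis), with the mean and SD. HLA-E and TAPBP are higher in treated cultures of every genotype, PSMB8 and PSMB9 are highest in the TFEB KO and DKO clones, and NLRC5 stays at or below 2.85.

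The peptide transporter subunit TAP1 was low, with 26 to 82 reads per library. WT controls held 8.55, 10.9 and 10.7, HBSS cultures 8.74 and 6.49 and Torin cultures 8.91 and 14.5, and neither treatment passed. TFE3 KO controls held 4.59, 4.14 and 5.15, below all other libraries of the series, and were -0.97 ± 0.20 (SE, adjusted p = 0.000453) from WT. With Torin the clone held 9.96, 8.46 and 8.32, a rise of 0.82 ± 0.20 (SE, adjusted p = 0.000509). TFEB KO cells held 10.5, 9.56 and 11.4 and, with Torin, 10.5, 12.9 and 10.4. TFEB KO controls did not pass against WT (0.06, 95% interval -0.34 to 0.46, adjusted p = 0.891) but were above TFE3 KO by 1.03 ± 0.20 (SE, adjusted p = 6.04e-05). DKO cells held 7.48, 6.10 and 9.86 and, with Torin, 11.5, 11.9 and 14.8, a rise of 0.66 ± 0.20 (SE, adjusted p = 0.00479). DKO controls did not pass against TFE3 KO by limma (0.63, 95% interval 0.23 to 1.03, adjusted p = 0.0513) but did with edgeR (adjusted p = 0.0412) and DESeq2 (adjusted p = 0.0468). In the order of means only TFE3 KO control, the lowest, stood apart from its neighbour, WT HBSS. The DKO call was lost without 1 library (adjusted p = 0.0501 without DKO control replicate 2).

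TAPBP, which encodes tapasin, had the largest response to HBSS of the 9 genes. WT controls held 34.7, 33.3 and 40.4 and HBSS cultures 89.3 and 79.95, a rise of 1.21 ± 0.12 (SE, adjusted p = 4.16e-12), while the WT Torin cultures held 50.9 and 48.1, a rise of 0.45 ± 0.12 (SE, adjusted p = 0.00164). WT HBSS stood apart from every other group. In TFE3 KO 50.2, 44.5 and 49.4 went to 61.5, 55.7 and 61.6 with Torin (0.31 ± 0.11 SE, adjusted p = 0.0131). In TFEB KO 47.6, 43.5 and 43.4 went to 56.0, 60.9 and 50.1 (0.30 ± 0.11 SE, adjusted p = 0.0189), and in DKO 38.0, 42.2 and 43.5 went to 53.8, 63.3 and 60.6 (0.51 ± 0.11 SE, adjusted p = 6.40e-05). Torin libraries were above their controls in each genotype. TFE3 KO and TFEB KO controls stood above WT, by 0.40 ± 0.11 (SE, adjusted p = 0.0076) and 0.31 ± 0.11 (SE, adjusted p = 0.0393). The DKO difference was 0.19, 95% interval -0.02 to 0.40, adjusted p = 0.264. The TFEB KO minus WT call was lost without 1 library (adjusted p = 0.116 without WT control replicate 1, 0.158 without WT control replicate 2, 0.147 without TFEB KO control replicate 1, 0.0638 without TFEB KO control replicate 2 and 0.0543 without TFEB KO control replicate 3), and the TFE3 KO minus WT call (adjusted p = 0.0542 without WT control replicate 2). The Torin call in TFE3 KO was lost without 1 library (adjusted p = 0.0762 without TFE3 KO control replicate 2), as was that in TFEB KO (adjusted p = 0.0616 without TFEB KO control replicate 2, 0.0569 without TFEB KO control replicate 3 and 0.114 without TFEB KO Torin replicate 2).

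The immunoproteasome subunits gave the largest differences between clones. PSMB8, the β5i subunit, held 3.29, 4.55 and 2.73 in WT controls (20, 23 and 14 reads), 5.52 and 6.07 in HBSS and 5.16 and 4.03 with Torin. HBSS raised it by 0.61 ± 0.26 (SE, adjusted p = 0.0482), with every HBSS library above the controls. TFE3 KO controls held 1.59, 1.38 and 1.87 (9, 9 and 12 reads) and Torin cultures 4.24, 3.12 and 2.29. The controls were lower than WT, with a difference of -0.78 ± 0.23 (SE, adjusted p = 0.0228), and Torin raised PSMB8 in this clone by 0.67 ± 0.23 (SE, adjusted p = 0.0135), or by 1.02 with edgeR. TFEB KO controls held 7.74, 11.1 and 10.1 (34, 59 and 61 reads) and Torin cultures 12.2, 12.3 and 11.6. The controls were above WT by 1.24 ± 0.23 (SE, adjusted p = 0.000142) and above TFE3 KO by 2.02 ± 0.23 (SE, adjusted p = 1.91e-09), with no overlap in either. DKO controls held 8.88, 7.32 and 6.89 and Torin cultures 7.69, 7.78 and 13.6. The controls were above WT by 0.96 ± 0.23 (SE, adjusted p = 0.00273) and above TFE3 KO by 1.73 ± 0.23 (SE, adjusted p = 7.61e-07), and with Torin TFEB KO and DKO exceeded WT by 1.23 ± 0.26 (SE, adjusted p = 0.00055) and 0.90 ± 0.26 (SE, adjusted p = 0.0149). In the order of means TFE3 KO Torin, WT HBSS and DKO control each stood apart from the group below, and the other neighbours overlapped. The HBSS call of PSMB8, at an adjusted p of 0.0482, was lost without any of 12 single libraries (adjusted p = 0.0948 without WT control replicate 1, 0.168 without WT control replicate 3, 0.105 without WT HBSS replicate 1, 0.19 without WT HBSS replicate 2, 0.0503 without TFEB KO control replicate 2, 0.0515 without TFEB KO control replicate 3, 0.0536 without TFEB KO Torin replicate 1, 0.0532 without TFEB KO Torin replicate 2, 0.0521 without TFEB KO Torin replicate 3, 0.0504 without DKO control replicate 1, 0.0523 without DKO control replicate 2 and 0.0502 without DKO control replicate 3). It was also lost with edgeR (adjusted p = 0.0618) and DESeq2 (adjusted p = 0.0757) on the recovered reads. The call of TFE3 KO against WT was lost without 1 library (adjusted p = 0.141 without WT control replicate 2, 0.0617 without TFE3 KO control replicate 1 and 0.0963 without TFE3 KO control replicate 2), as were that of Torin in TFE3 KO (adjusted p = 0.0516 without TFE3 KO control replicate 2 and 0.102 without TFE3 KO Torin replicate 1) and that of DKO against WT under Torin (adjusted p = 0.173 without WT Torin replicate 3 and 0.135 without DKO Torin replicate 3).

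PSMB9, the β1i subunit, held 4.27, 2.38 and 2.54 in WT controls (26, 12 and 13 reads), 1.15 and 2.09 in HBSS and 3.98 and 3.56 with Torin. The HBSS values were below all controls, a difference that did not pass (-0.63, 95% interval -1.19 to -0.06, adjusted p = 0.0623). It passed as lower by limma with a pseudocount of 0.1 (-0.88, adjusted p = 0.0347) and without 1 library (adjusted p = 0.0439 without WT control replicate 2, 0.0404 without WT HBSS replicate 2 and 0.0421 without TFE3 KO control replicate 1). TFE3 KO controls held 1.41, 4.14 and 3.74, with replicate 1 lowest, and Torin cultures 7.21, 6.90 and 4.37. Torin raised PSMB9 there by 0.86 ± 0.25 (SE, adjusted p = 0.00385), while TFE3 KO controls did not pass against WT (-0.03, 95% interval -0.54 to 0.47, adjusted p = 0.964). TFEB KO controls held 7.06, 12.4 and 9.95 and Torin cultures 10.7, 10.1 and 8.76, overlapping each other and all above WT. The differences from WT were 1.41 ± 0.25 (SE, adjusted p = 7.86e-05) in controls and 1.18 ± 0.28 (SE, adjusted p = 0.00215) with Torin. DKO controls held 6.54, 6.97 and 9.23 and Torin cultures 15.4, 18.8 and 20.3 (100, 99 and 103 reads), the highest of the series, a rise of 1.16 ± 0.25 (SE, adjusted p = 0.000134). DKO was above WT by 1.10 ± 0.25 (SE, adjusted p = 0.00155) in controls and by 1.998 ± 0.28 (SE, adjusted p = 1.02e-06) with Torin, and above TFE3 KO by 1.13 ± 0.25 (SE, adjusted p = 0.00271). TFEB KO controls were above TFE3 KO by 1.44 ± 0.25 (SE, adjusted p = 1.39e-05). WT control, TFE3 KO Torin and DKO Torin each stood apart from the group below in the order of means. The TFE3 KO Torin call was lost without 1 library (adjusted p = 0.102 without TFE3 KO control replicate 1) and its value fell to 0.51, and DKO minus TFE3 KO was lost without 1 library (adjusted p = 0.0879 without TFE3 KO control replicate 1).

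The transactivator NLRC5 was close to the limit of detection, with 3 reads or fewer in 9 of 25 libraries. WT controls held 6, 1 and 1 reads (values 0.986, 0.198 and 0.195), HBSS cultures 1 and 1 and Torin cultures 4 and 4. TFE3 KO cells held 10, 4 and 3 reads as controls and 10, 1 and 3 with Torin, and DKO cells 11, 2 and 13 and 11, 6 and 12. No difference among these groups passed. TFEB KO controls held 1, 9 and 5 reads (values 0.228, 1.69 and 0.829) and Torin cultures 13, 18 and 14 (values 2.24, 2.83 and 2.85). All 3 Torin libraries were above the controls, by 0.995 ± 0.33 (SE, adjusted p = 0.0142). That call was lost without 1 library (adjusted p = 0.126 without TFEB KO control replicate 1) and with DESeq2 (0.064), and with a pseudocount of 0.1 the difference was 1.74. In the order of group means every neighbour overlapped.

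Since 7 of the 9 genes lie on chromosome 6, their differences from WT were set beside those of the whole arm. In TFEB KO controls the 276 other tested genes, members left out, from the TFEB guide site to the end of the short arm had a median log2 difference of -0.32, and 35.1% of them passed as lower. The 291 genes of the long arm had a median of -0.01. Between guide site and centromere (84 genes) the median was -0.27, and over the 87 tested genes of the MHC, from GABBR1 to KIFC1, it was -0.36. In DKO controls the whole chromosome was low, with medians of -0.23 on the telomere side of the guide site and -0.22 on the long arm. In TFE3 KO controls the same 2 medians were 0.04 and -0.005. Pooled over all other chromosomes, the 12117 tested genes had medians within 0.01 of 0 in each of the 3 clones. Single chromosomes also stood away from 0. In TFEB KO chromosome 13 (-0.17) had a lower median than chromosome 6 as a whole (-0.15), and in TFE3 KO chromosome 8 was lowest (-0.25). In DKO chromosome 6 was the lowest autosome (-0.22), followed by chromosome 5 (-0.08). In TFEB KO the 7 class I genes stood above the arm. Against its median, PSMB9 was higher by 1.73, PSMB8 by 1.56 and HLA-B by 0.91, and the other 4 by 0.38 (TAP1) to 0.66 (HLA-C). PSMB8 and PSMB9 each exceeded all 276 other genes on that stretch in TFEB KO. In DKO, PSMB9 exceeded them all and stood 1.32 above the median, and PSMB8 stood 1.18 above it, while HLA-B (-0.27) and TAP1 (-0.11) were below it. In TFE3 KO, where the arm was not low, TAP1, PSMB8, HLA-B and HLA-C stood -1.02, -0.82, -0.79 and -0.53 from the median. Off the chromosome, B2M differed from WT by 0.04, -0.04 and 0.24 in the TFE3 KO, TFEB KO and DKO clones and NLRC5 by 0.40, 0.36 and 0.66, none of which passed. DNA copy number was not measured, and its part in these differences was not tested.

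**Figure D4:**
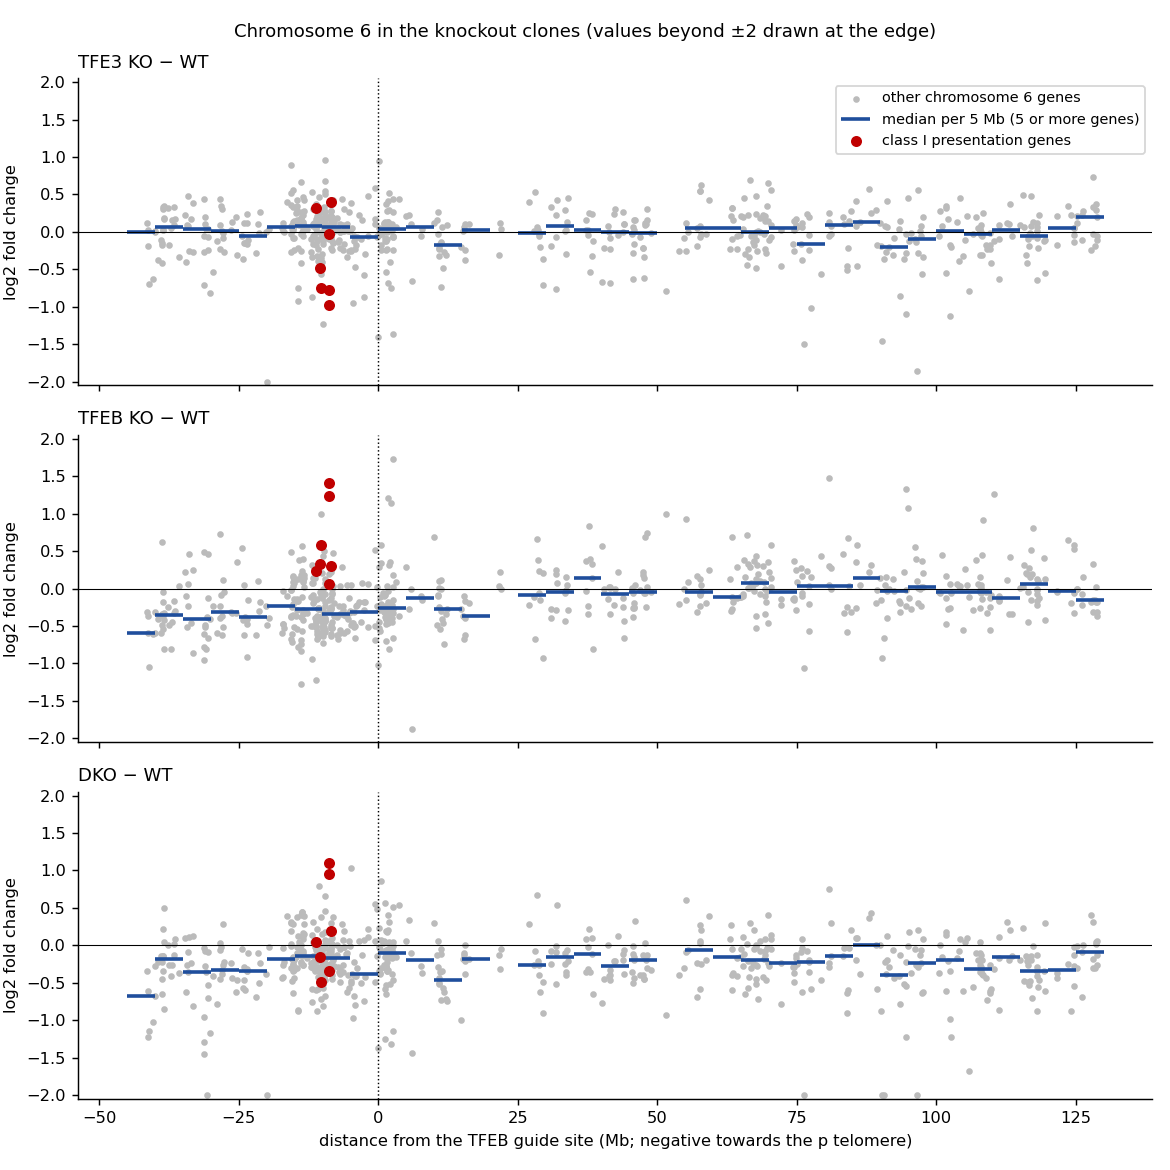
Log2 difference from WT controls (y axis) of tested chromosome 6 genes against distance from the TFEB guide site in Mb (x axis; dotted line at the site), with 7 class I genes in red and medians per 5 Mb in blue. In TFEB KO the medians left of the site lie below 0 (overall -0.32) while PSMB9 and PSMB8 lie above 1, and in TFE3 KO TAP1 (-0.97), PSMB8, HLA-B and HLA-C (-0.49) lie below 0.

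6 pairs of genes were compared within each library, as differences of log2(value + 1), and not all of them are described here. PSMB9 minus TAP1, the divergent neighbours, was -1.47 ± 0.53 in WT controls (SD, n = 3), -0.53 ± 0.62 in TFE3 KO, -0.12 ± 0.43 in TFEB KO and -0.03 ± 0.17 in DKO controls. TFEB KO and DKO controls were above all WT controls, by 1.35 (exact permutation p = 0.1, adjusted p = 0.24) and 1.44 (exact permutation p = 0.1, adjusted p = 0.24). TFE3 KO controls overlapped WT, at 0.94 (exact permutation p = 0.2, adjusted p = 0.29). Torin shifted the difference in DKO by 0.51 (exact permutation p = 0.1, adjusted p = 0.24), with no overlap. PSMB8 minus PSMB5, the immunoproteasome subunit against the constitutive one it replaces, was -6.13 ± 0.31 in WT, -6.81 ± 0.15 in TFE3 KO, -4.60 ± 0.29 in TFEB KO and -5.24 ± 0.23 in DKO controls, and no 2 of these 4 groups overlapped. In WT it rose without overlap in HBSS (1.15) and with Torin (0.99), each with exact permutation p = 0.2 and adjusted p = 0.29. Torin also raised it without overlap in TFE3 KO (1.24, exact permutation p = 0.1, adjusted p = 0.24), TFEB KO (0.96, exact permutation p = 0.1, adjusted p = 0.24) and DKO (0.82, exact permutation p = 0.1, adjusted p = 0.24). PSMB5 fell in HBSS and with Torin in each genotype, with log2 differences of -0.55 in HBSS and -0.67 with Torin in WT. PSMB5 also passed as lower than WT in TFEB KO controls, so the pair difference there holds changes of both genes. HLA-B minus B2M was -4.59 ± 0.27 in WT, -5.37 ± 0.17 in TFE3 KO, -3.96 ± 0.33 in TFEB KO and -5.32 ± 0.22 in DKO controls. Its differences from WT, all without overlap, were -0.78 (exact permutation p = 0.1, adjusted p = 0.24) in TFE3 KO, -0.74 (exact permutation p = 0.1, adjusted p = 0.24) in DKO and 0.62 (exact permutation p = 0.1, adjusted p = 0.24) in TFEB KO. HLA-C minus B2M differed from WT without overlap in TFE3 KO controls alone (-0.52, exact permutation p = 0.1, adjusted p = 0.24). In TFEB KO (0.37) and DKO (-0.39) controls it overlapped WT, each with exact permutation p = 0.2 and adjusted p = 0.29. Tests were exact, 2-sided permutation tests over libraries, adjusted over 84 such tests on 6 pairs. With 3 libraries against 3 the smallest p they can give is 0.1, and with 3 against 2 it is 0.2, so none could pass.

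**Figure D5:**
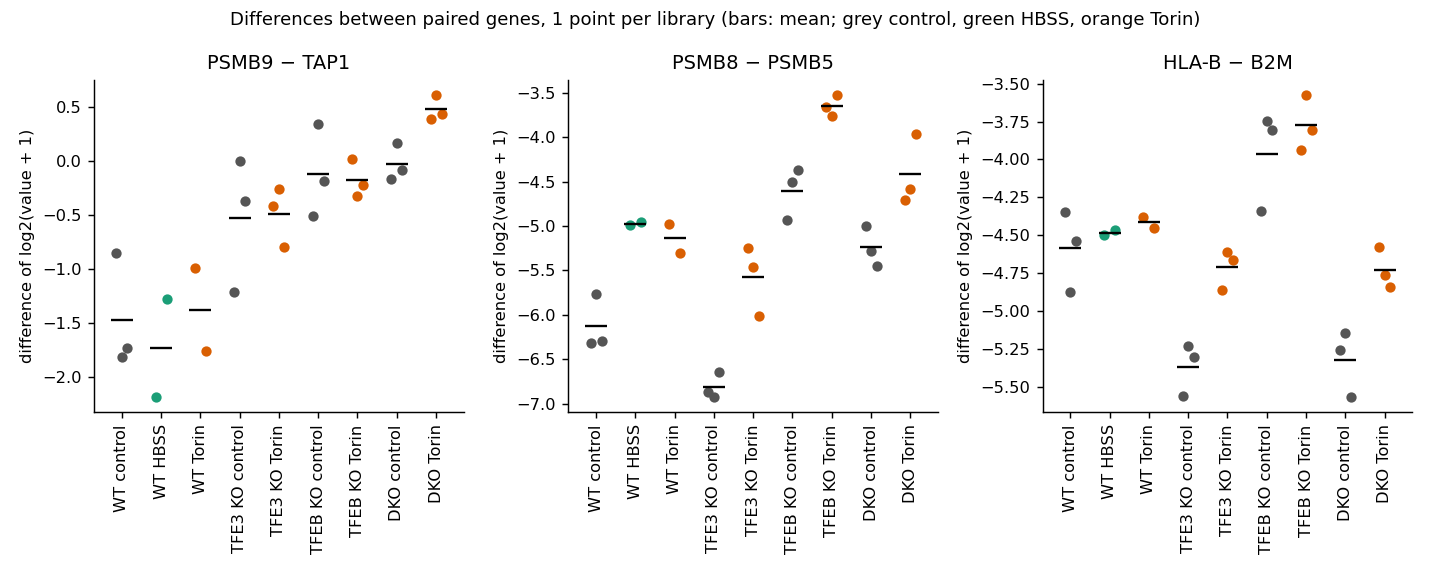
Difference of log2(value + 1) between 2 genes within each library (y axis), by group (x axis), with group means as bars. PSMB9 minus TAP1 rises from -1.47 in WT controls to 0.48 in DKO with Torin, PSMB8 minus PSMB5 is lowest in TFE3 KO controls, and HLA-B minus B2M is lowest in TFE3 KO and DKO controls.

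Other genes of the pathway were taken from lists, with the count that passed in each direction. HLA-F, a further class I heavy chain gene, rose in HBSS by 0.99 ± 0.31 (SE, adjusted p = 0.0064) and with Torin in WT (1.04 ± 0.31 SE, adjusted p = 0.00504) and TFE3 KO (0.79 ± 0.27 SE, adjusted p = 0.0141). The pseudogene HLA-H rose in HBSS (0.79 ± 0.34 SE, adjusted p = 0.0475), on 4 to 7 reads per WT control and 8 and 16 per HBSS library. Neither passed against WT in control cultures of the 3 clones, where HLA-F differed by -0.09 in TFE3 KO, -0.11 in TFEB KO and -0.29 in DKO.

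Of 9 genes of peptide loading and trimming, 8 were tested. In HBSS 1 rose and 2 fell (all genes 23.6% and 24.7%). With Torin 0 rose and 5 fell in WT (20.5% and 23.4%) and 0 rose and 4 fell in TFE3 KO (25.4% and 26%). With Torin 0 rose and 3 fell in TFEB KO (17.4% and 21%) and 1 rose and 3 fell in DKO (25.4% and 26.2%). The chaperone CALR (calreticulin) and the oxidoreductase PDIA3, which sit with tapasin in the loading complex, fell in all 5, with differences of -0.98 and -0.66 in HBSS and -1.64 and -1.17 with Torin in WT, where TAPBP rose. TAP2, the partner of TAP1, rose in HBSS (0.44 ± 0.12 SE, adjusted p = 0.0017) and fell with Torin in WT (-0.31 ± 0.12 SE, adjusted p = 0.0306) and TFE3 KO (-0.27 ± 0.11 SE, adjusted p = 0.0281). In TFE3 KO and DKO controls CALR, PDIA3 and CANX were lower than WT, PDIA3 with differences of -0.65 and -0.61. The list's median was -0.01 in HBSS and -0.32 with Torin in WT.

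Of 8 proteasome partners, all tested, 2 rose and 5 fell in HBSS (all genes 23.6% and 24.7%). With Torin 0 rose and 6 fell in WT (20.5% and 23.4%) and 0 rose and 6 fell in TFE3 KO (25.4% and 26%). With Torin 1 rose and 6 fell in TFEB KO (17.4% and 21%) and 0 rose and 5 fell in DKO (25.4% and 26.2%). The list's medians in these 5 comparisons were -0.39, -0.55, -0.38, -0.61 and -0.40, in that order. The constitutive subunits PSMB5, PSMB6 and PSMB7 fell in each of these 5. PSMB10, the remaining immunoproteasome subunit, is on chromosome 16. It held 35.8, 40.8 and 43.3 in WT controls and 75.0 and 74.9 in HBSS, and rose by 0.90 ± 0.13 (SE, adjusted p = 1.51e-07). Its differences from WT in the TFE3 KO, TFEB KO and DKO clones were 0.12, 0.03 and 0.31 and did not pass. Among control cultures 1 partner was higher than WT and 0 lower in TFE3 KO (all genes 3.57% and 5.84%). In TFEB KO 0 were higher and 2 lower (7.46% and 7.18%), PSMB5 and POMP, and in DKO 2 were higher and 0 lower (5.64% and 7.49%). PSME1, a subunit of the PA28 proteasome activator, was higher than WT in TFE3 KO (0.38 ± 0.10 SE, adjusted p = 0.0107) and DKO (0.53 ± 0.10 SE, adjusted p = 0.000158) controls.

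Of 15 genes for factors at class I promoters (RFX, CREB/ATF, NF-Y, USF, NF-κB and IRF), 14 were tested. In HBSS 7 rose and 2 fell (all genes 23.6% and 24.7%). Among control cultures 1 rose and 0 fell in TFE3 KO (all genes 3.57% and 5.84%). In TFEB KO 2 rose and 0 fell (7.46% and 7.18%), and in DKO 1 rose and 0 fell (5.64% and 7.49%). IRF1, a factor that interferon induces and that raises class I genes, did not pass against WT in these 3 clones (-0.09, 0.49 and 0.34) and fell in HBSS (-0.81 ± 0.30 SE, adjusted p = 0.0229) and with Torin in DKO (-0.65 ± 0.27 SE, adjusted p = 0.0389). Between Torin cultures 3 of the 14 were higher in TFEB KO than in WT and 0 lower (all genes 9.39% and 8.56%). They were RELB, IRF2 and IRF1 (IRF1 by 0.86 ± 0.30 SE, adjusted p = 0.0376). IRF1 held 7 to 45 reads per library, with 10 and 11 in the WT Torin libraries, so its values rest on few reads. PSMB8, PSMB9 and HLA-B were higher in that comparison too, and the part of IRF1 there was not tested.

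Of 25 interferon-induced genes, 21 were tested. Against WT controls 0 rose and 2 fell in TFE3 KO (all genes 3.57% and 5.84%). In TFEB KO 8 rose and 0 fell (7.46% and 7.18%), and in DKO 7 rose and 0 fell (5.64% and 7.49%). The list's medians in these clones were 0.11, 0.37 and 0.38, beside medians within 0.01 of 0 over all genes. In TFEB KO those higher were ISG15, IFI6, IFITM2, IFITM3, UBE2L6, OAS1, OAS3 and BST2. IFITM2 was higher by 1.19 ± 0.18 (SE, adjusted p = 3.00e-06) and BST2 by 1.32 ± 0.29 (SE, adjusted p = 0.00125). BST2, OAS1 and UBE2L6 were close to the limit of detection, with 3 reads or fewer in 13, 15 and 8 of 25 libraries. In TFE3 KO IFITM3 and OAS3 fell, OAS3 with a difference of -1.21 ± 0.23 (SE, adjusted p = 0.000233). TFEB KO exceeded TFE3 KO in 9 of the 21 (15.6% of all tested genes), with OAS3 at 2.06 ± 0.23 (SE, adjusted p = 1.64e-09). PSMB8 and PSMB9 were higher than WT in the TFEB KO and DKO clones, and in TFE3 KO PSMB8 was lower and PSMB9 did not pass. The part of interferon signalling in their levels was not tested.

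Likeness was measured as Pearson's r between a member's 9 group means and those of every other tested gene with a mean value of at least 5, on the log2(value + 1) scale. These r describe 9 points that share clones and treatments, and the named genes are the highest of 9856, so high values arise by selection. The 3 nearest genes, or those of them reported here, were for HLA-B LINCR-0002 (0.98), THSD7A (0.96) and LRP10 (0.95), for HLA-C FBLN1 (0.97), PPP2R5A (0.96) and LARP6 (0.95) and for HLA-E RNF146 (0.98), RBL2 (0.98) and IGBP1 (0.98). Those nearest to B2M were RPSAP58 (0.93), CASC9 (0.91) and SNHG18 (0.89), to TAP1 PALM (0.93) and C11orf74 (0.91) and to TAPBP USP8 (0.98) and DCAF5 (0.97). PSMB8 was nearest to ISM1 (0.96), CLU (0.96) and OAS3 (0.95), and PSMB9 to IFITM2 (0.96), APOBEC3D (0.95) and ZNF112 (0.95). OAS3 and IFITM2 are interferon-induced genes on the list above. Among the members, r over the 9 group means was 0.82 for HLA-B and HLA-C, 0.74 for HLA-B and PSMB8 and 0.74 for HLA-C and PSMB8. It was 0.73 for HLA-B and TAP1, 0.74 for HLA-E and TAPBP, 0.78 for PSMB9 and NLRC5 and 0.67 for PSMB8 and PSMB9. NLRC5 held 1 to 18 reads per library, so its r is uncertain, and not all pairs are named here. The r was 0.02 for HLA-E and PSMB8 and -0.13 for TAPBP and PSMB9.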

How the data were processed

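Polyadenylated RNA of 501mel cells was sequenced with QuantSeq Forward 3′ libraries. Per the submitters' processing notes, FastQC 0.11.9, cutadapt 2.10, STAR 2.7.8a with hg38, and edgeR were used. The counter, its annotation and the scaling method are not given in the sources used here. The values the authors deposited are a normalised signal per gene symbol. They were 100% whole multiples (within 0.0100 of a read) of 1 step per library, so the reads behind them were recovered. Libraries held 4147050 to 6526392 reads. Samples were grouped by their titles, and the duplicated column was removed from both its groups. Values were fitted as log2(value + 1) in 1 model over 9 groups with limma 3.58.1 (trend and robust) in R 4.3.3, for genes whose value reached 1 in 3 or more libraries. p-values are 2-sided and Benjamini-Hochberg adjusted over all 13052 genes within each of 17 comparisons, and passed means an adjusted p under 0.05. The model was tested on simulated data first. Alternatives were a pseudocount of 0.1, 2 other filters, 2 other scalings, only the groups compared, edgeR 4.0.16 and DESeq2 1.42.0 on recovered reads, a replicate block, 3 ways of keeping the duplicated column, and each library left out. edgeR called 6138 genes for HBSS and 5467 for Torin in WT. Named genes are the members, TFEB and TFE3, list genes that passed with an absolute log2 difference of at least 1 and a mean of at least 5, set partners of the members, and the 3 genes most like each member with a mean of at least 5. CALR, PDIA3, CANX, PSME1, IFITM3, EZH2, SUZ12 and others named below that size were chosen after their values were seen, as were MICB, HLA-H and other genes named in a count of 5 or fewer. Members and lists were chosen with earlier results of these data known. Positions were taken from GENCODE v44 and promoters from RefSeq GRCh38.p14, which gave windows for 7 of 9 members. Some genes of the lists and some of the most alike genes are not reported here. Exact tests used scipy 1.17.1.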

Additional observations from a re-analysis of the deposited data

Results flagged for a closer look

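The column deposited under both WT HBSS replicate 3 and WT Torin replicate 1 was used in no comparison above. In it 3 class I genes lay above every WT control: HLA-C at 28.8 (highest WT control 27.3), HLA-E at 53.4 (44.9) and TAPBP at 88.1 (40.4). The share of all tested genes above every WT control in this column was not computed. The count is therefore not a result about the class I genes. TAPBP held 89.3 and 79.95 in the other WT HBSS libraries and 50.9 and 48.1 in the other WT Torin libraries. Which label the column belongs to was not tested, and it was assigned to neither group.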

How the results depend on the processing

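The 49 member calls were recomputed under 12 alternative settings and without each library in turn, and none turned its direction in any of them. None was lost with a pseudocount of 0.1, without a filter, with a minimum value of 5 (48 calls, since NLRC5 was not tested), with median-of-ratios scaling or with scaling on genes outside chromosome 6. With only the groups compared, 5 were lost, with edgeR on the recovered reads 1 and with DESeq2 3. Keeping the duplicated column as WT HBSS replicate 3 lost 1, and keeping it as WT Torin replicate 1 or under both labels lost 10 each. PSMB8 in HBSS was lost in each of these 6 settings. Further losses were PSMB8 in TFE3 KO, HLA-B and TAPBP in TFEB KO and B2M in DKO against TFEB KO with only the groups compared, TAPBP in TFEB KO and NLRC5 in TFEB KO with Torin by DESeq2, and, with the column as WT Torin replicate 1, the 4 named first together with TAPBP in TFE3 KO with and without Torin and HLA-E, B2M and TAPBP in TFEB KO with Torin. The causes were not tested. Calls were also gained. Those gained in the most settings were TAP1 in DKO against TFE3 KO, HLA-E in TFE3 KO against WT, and HLA-B in TFEB KO with Torin, all 3 among those gained with edgeR. With edgeR HLA-B also passed as lower in DKO than WT (adjusted p = 0.046) and HLA-C (adjusted p = 0.0313) and B2M (adjusted p = 0.0476) as higher in DKO with Torin, and B2M in HBSS passed with scaling on genes outside chromosome 6 (adjusted p = 0.0475). Without WT control replicate 1, B2M (adjusted p = 0.0049) and HLA-B (0.031) passed as higher in HBSS and B2M in DKO against WT (0.00759), the last also without DKO control replicate 1 (0.0309). With only the groups compared, 2 members passed for TFEB KO minus WT in place of 4 (all genes 1424 in place of 1911). With the column as WT Torin replicate 1, and equally under both labels, 1 passed for Torin in TFEB KO in place of 4, 3 for TFE3 KO minus WT in place of 5, 2 for TFEB KO minus WT in place of 4, and 2 for TFE3 KO minus WT under Torin in place of 1. With the column as WT Torin replicate 1, the counts over all genes moved too. In the same order they were 3679 in place of 5005, 484 in place of 1228, 765 in place of 1911 and 1948 in place of 1258. Keeping the column in that group also raised the TAPBP response to Torin in WT to 0.72. Without each library in turn, the number of members that passed was 2 to 5 for HBSS, 2 to 5 for Torin in TFEB KO, 3 to 6 for TFE3 KO minus WT, 2 to 4 for TFEB KO minus WT, 1 to 3 for DKO minus TFE3 KO, 0 to 1 for TFE3 KO minus WT under Torin and 1 to 3 for DKO minus WT under Torin. Over all genes, the first 4 of these ranges were 5074 to 6382, 4278 to 5110, 821 to 1318 and 1266 to 2033. The last 3 were 431 to 694, 598 to 1359 and 802 to 1647. The most member calls, 7, were lost without TFEB KO control replicate 2. In the other 7 comparisons the number of members stayed within 1.5 times the value reported. Same-numbered libraries shared little deviation in the groups with 3 libraries (63 pairs, r from -0.26 to 0.24, median 0.013, 10 over 0.1). WT HBSS and WT Torin were not in this check. For DKO and TFE3 KO controls the r of replicates 1, 2 and 3 were 0.14, 0.03 and 0.24. Weak correlations cannot exclude that some libraries were paired. With a replicate block, 1 call was lost (PSMB8 in HBSS, adjusted p = 0.0627) and the number of genes that passed was 6224 for HBSS against 6299. Depth limits PSMB8, PSMB9, TAP1 and above all NLRC5, whose values rest on few reads. No scaling moved the median of all genes by over 0.1.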

Other observations

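Genes related to class I showed other patterns. Of 10 class I-like genes, 6 were tested. MICA and MICB, stress ligands of the NK cell receptor NKG2D encoded in the MHC, both fell with Torin in all 4 genotypes. The differences were -1.05, -1.21, -0.87 and -1.16 for MICA and -1.01, -0.87, -1.46 and -1.38 for MICB, in the order WT, TFE3 KO, TFEB KO, DKO. FCGRT, the heavy chain of the neonatal Fc receptor, which also pairs with B2M, rose with Torin in TFE3 KO (1.08 ± 0.31 SE, adjusted p = 0.00325) and DKO (1.03 ± 0.31 SE, adjusted p = 0.00482). MICB and FCGRT rest on few reads, 0 to 54 and 1 to 41 per library, with values under 5 in 21 and 23 of 25 libraries. Of the 6 class I-like genes tested, with Torin 0 rose and 2 fell in WT (all genes 20.5% and 23.4%) and 2 rose and 3 fell in TFE3 KO (25.4% and 26%). With Torin 0 rose and 3 fell in TFEB KO (17.4% and 21%) and 2 rose and 2 fell in DKO (25.4% and 26.2%).

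The 3 core genes of PRC2, a complex that represses class I genes in some tumours, all fell with Torin in each genotype: the differences in WT were -1.03 for EED, -1.02 for SUZ12 and -0.81 for EZH2. Of all tested genes 21% to 26.2% fell with Torin, depending on the genotype. In HBSS EED and SUZ12 fell. The relation of these falls to the class I genes was not tested. Of 4 cytosolic peptidases, BLMH and THOP1 fell in all 5 treatment comparisons, in which 21% to 26.2% of all tested genes fell. Of 7 genes of class I turnover, 4 were tested, and NBR1, an autophagy receptor, rose in all 5, in which 17.4% to 25.4% of all tested genes rose. Of 12 class II genes, 1 was tested (HLA-DMA), which rose with Torin in DKO (0.74 ± 0.31 SE, adjusted p = 0.0432). HLA-DMA held 4 to 32 reads per library, so this value rests on few reads.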
